A study of Mus musculus with 264 samples.

Results

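Of the 75 transcripts assayed in single mouse neurospheres, 57 lacked a value in at least 1 of 264 neurospheres, and these 57 are described here as on or off. They were chosen by their missing values, so how often each one was missing over all neurospheres is a description and not a finding. A neurosphere is a free-floating ball of neural stem and progenitor cells grown from a dispersed piece of fetal brain. These came from the dorsal telencephalon, the tissue that forms the cerebral cortex, of C57/Bl6 fetuses at gestational day 12.5, with litters pooled before culture. All cultures, the controls included, grew with the growth factors bFGF and EGF, with LIF, and with insulin, transferrin, selenium, heparin and progesterone. They were assigned at random to 0 mM ethanol (68 neurospheres), 25 mM (64), 70 mM (66) or 100 mM (66) until collection on day 5, and the 0 mM cultures received no other agent. The study was set up to learn how ethanol changes what single neurospheres express. The developmental stage given with each sample differs between samples as a running number would, and gestational day 12.5 was therefore taken from the description of the tissue source. Sample labels were followed for the doses, since the series design gives 75 mM for the middle dose and the treatment protocol gives 26 mM for the lowest.

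There were 2 culture sets, named Set-A and Set-B, read in 3 runs of 88 neurospheres. Run 1 held 44 of each set, run 2 held 88 of Set-A and run 3 held 88 of Set-B, which gives 4 combinations of run and set and, with dose, 16 cells of 11 to 23 neurospheres. With only 2 sets, every p-value below rests on differences among neurospheres of the same cultures and would be larger if cultures were the unit. For the same reason a change seen in all 4 combinations was not seen in 4 separate culture sets. All 3 doses above 0 mM were set against 1 common group of 68 controls.

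Each lysed neurosphere was reverse transcribed, pre-amplified and measured by quantitative PCR. The cycle number (Ct) is the amplification cycle at which product becomes visible, so it runs backwards on a log2 scale: a transcript with more copies appears earlier. When few copies enter the reaction, product may appear late or not at all within the 30 cycles, and the assay has no value. A missing value is read here as not detected, which does not show that the cells lacked the transcript. The sources used here do not say how the software came to leave a value missing, so a failed or rejected reading cannot be told apart from too few copies. A neurosphere is also a bulk sample of many cells, and fewer cells that express a transcript cannot be told apart from less RNA per cell. The assays carry codes that the files do not pair with genes, and 0 of the 75 codes matched a mouse gene name. The members are thus described by code and by behaviour, the tissue label could not be checked against marker genes, and no sequence is shown.

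Of 19800 values in the table, 2055 (10.4%) were missing, which is 13.7% of the values of the 57 members. Recorded cycle numbers ran from 2.5 to 28.8, and 43 values (0.242%) lay above 25 cycles. A neurosphere had between 47 and 74 assays on, and 0 of 264 had every assay on. The members fell into 3 ranges. The lowest range held 14 assays that were off in 1 neurosphere each, A016 among them, just inside the rule, with median cycle numbers of 11.01 to 15.6 where on. Just outside the rule, the 18 assays that were never off had median cycle numbers of 6.62 to 15.5. A further 18 members were off in 2 to 12 neurospheres and contributed 105 missing values. The other 25 members were on in 5% to 95% of neurospheres, had median cycle numbers of 13.3 to 20.4 and held 1936 of the missing values (94.2%). Most of what follows concerns these 25. The least often detected was A062, on in 61 of 264 neurospheres, followed by A014 in 75 and A036 in 102, and no other member was on in under 50%.

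The 14 assays that were off in 1 neurosphere each did not spread evenly over neurospheres. Of these, 4 were off in the same neurosphere of run 1, Set-B, at 70 mM. That neurosphere had 28 assays off, more than any other, where the next had 25 and the other 10 in its cell had 1 to 4. Its mean cycle number over the 18 never-off assays was 9.46, within the range of those 10, whose highest was 11.8. A second neurosphere, of run 1, Set-A, at 0 mM, held 3 of the 14 and had 17 assays off. Without the first neurosphere the rule would select 53 members, and results that change without it are given as such below.

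**Figure D1:**
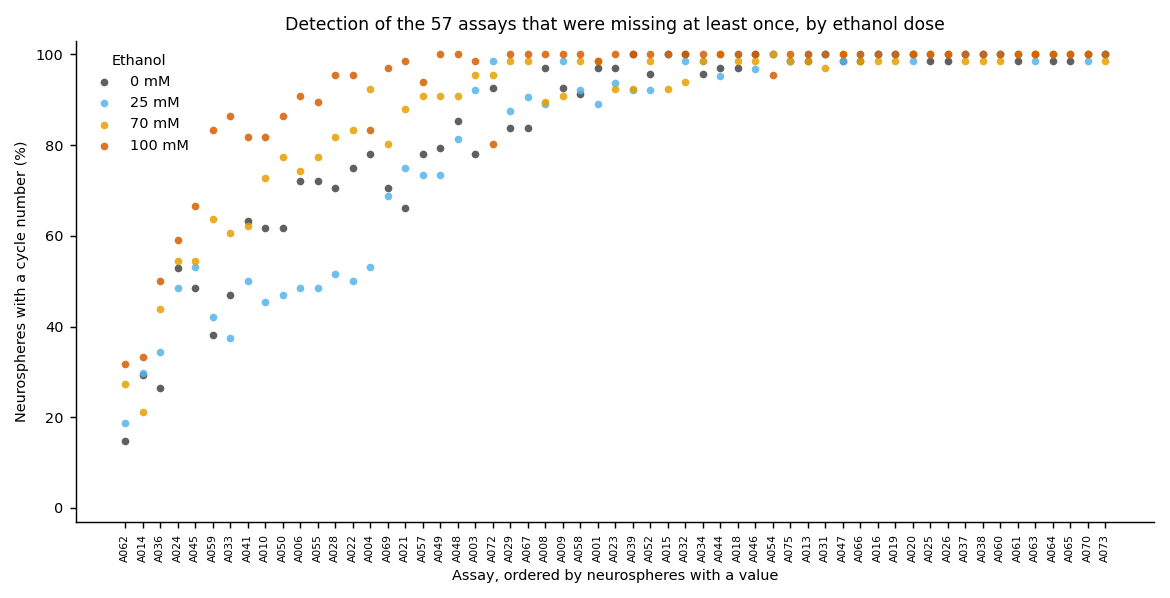
Percent of neurospheres with a cycle number (vertical axis) for each of the 57 members (horizontal axis, from the least to the most often detected), with 1 point for each ethanol dose (0 mM n = 68, 25 mM n = 64, 70 mM n = 66, 100 mM n = 66). Among the 25 members on the left, the 100 mM points mostly lie above the 0 mM points, and A072 is the member in this range whose 100 mM point (80.3%) is the lowest of its 4.

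Missing values were most frequent where product was due late. For each member, a due cycle was taken as the neurosphere's mean cycle number over the never-off assays plus the assay's median offset from that mean in the same run and set. The offset comes from neurospheres where the assay was on, so it places low members too early, and it was taken only where at least 5 values were recorded. Members due before 12 cycles were on in 98.4% of 2758 cases, and those due at 12 to 16 cycles in 98.3% of 5038. The share fell to 88.2% of 4842 for 16 to 20 cycles, to 57.4% of 1743 for 20 to 24 cycles and to 29.8% of 181 from 24 cycles on. Missing values were not limited to late transcripts, since 44 were due before 12 cycles and 86 at 12 to 16.

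A neurosphere's number of assays off rose with its mean cycle number over the 18 never-off assays. Across 264 neurospheres Pearson's r was 0.72 and Spearman's rho 0.76, and r was 0.71 without the 2 neurospheres farthest from the median mean cycle number. In the 4 combinations of run and set r was 0.60, 0.73, 0.81 and 0.84. Within the 16 cells it ran from -0.08 to 0.92 with a median of 0.72, and it was above 0 in 15. The cell below 0 is that of the neurosphere with 28 assays off. These are descriptions, since all points of a panel share a run and a culture set. Diameter showed no such relation over all neurospheres, with r of -0.04 against log2 diameter. Within the 16 cells this r ran from -0.70 to 0.48 with a median of -0.06, and it was above 0 in 8.

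**Figure D2:**
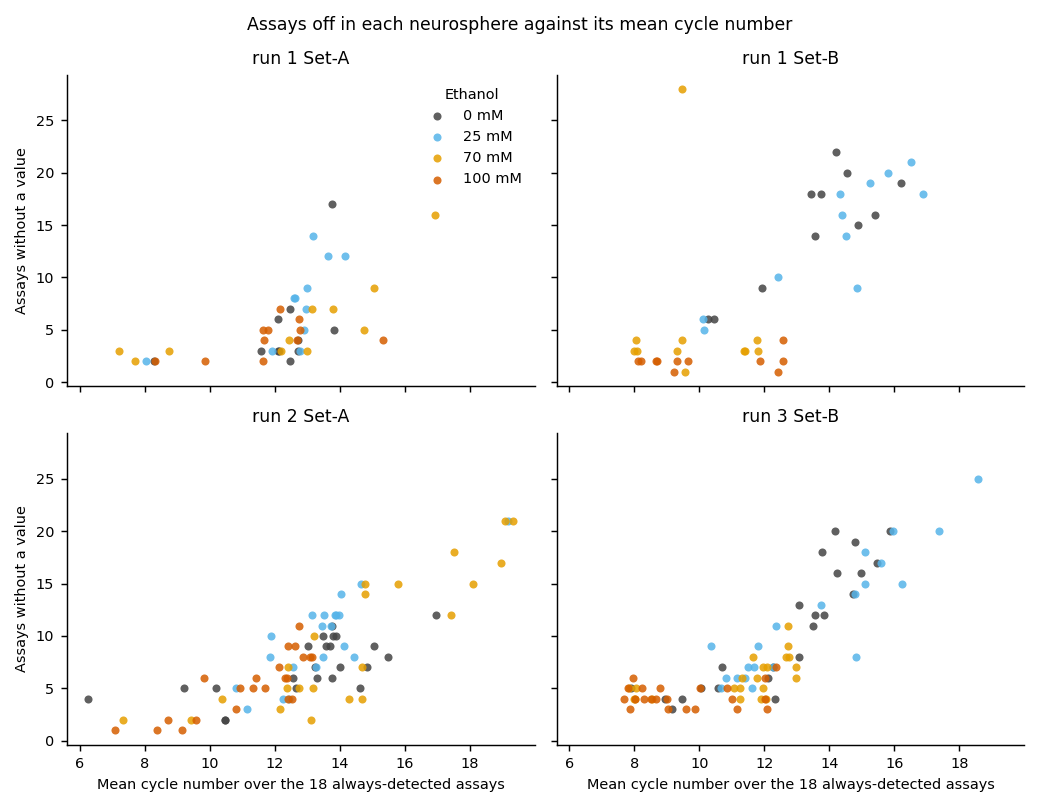
Number of the 75 assays without a value in each neurosphere (vertical axis) against its mean cycle number over the 18 never-off assays (horizontal axis, in cycles), in 1 panel for each combination of run and culture set, with colour giving the ethanol dose. The points rise to the right in all panels, and the neurosphere with 28 assays off stands alone in the run 1 Set-B panel at 9.46 cycles.

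Which assays were off depended on the run. In 7 combinations of assay with run and set, 5 assays in all, no neurosphere had a value, and these hold 484 (23.6%) of all missing values. A062 was on in 41 of 44 neurospheres of run 1 Set-A and 20 of 44 of run 1 Set-B, and in 0 of 88 in run 2 and 0 of 88 in run 3. A036 was the reverse, with 0 of 44 in each set of run 1, 42 of 88 in run 2 and 60 of 88 in run 3. A024 was on in 42 and 28 of 44 neurospheres of run 1 and 72 of 88 of run 2, and A045 in 44 and 24 of 44 and 79 of 88, and both were on in 0 of 88 of run 3. A014 was on in 0 of 44 neurospheres of run 1 Set-A, 7 of 44 of run 1 Set-B, 8 of 88 of run 2 and 60 of 88 of run 3. A count of 0 of 88 allows a share of up to 3.41% and 0 of 44 one of up to 6.82%, for counting error only. The median cycle numbers of these assays where on lay between 13.2 (A014, run 1 Set-B) and 20.5 (A062, run 1 Set-A).

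Tested at matched doses with the exact conditional Mantel-Haenszel test, which compares counts of neurospheres within strata, here the doses, few of the 75 assays differed between runs. This test keeps the number of detections in each stratum fixed, which is the quantity that chose the members. Adjusted p below is Benjamini-Hochberg over all 75 assays, with 0.05 as the threshold. Among Set-A neurospheres, run 2 against run 1 gave 1 assay higher (1.33%), A036, and 4 lower (5.33%). A062 was the lowest of these, at 93.2% in run 1 and 0% in run 2 (adjusted p = 3.58e-28, exact test). Among Set-B neurospheres, run 3 against run 1 gave 4 higher (5.33%) and 3 lower (4%). A036 rose there from 0% to 68.2% (adjusted p = 1.21e-16, exact test) and A024 fell from 63.6% to 0% (adjusted p = 1.09e-17, exact test). Between the sets within run 1, 0 assays were higher in Set-B (0%, and 1 at an unadjusted p under 0.05) and 6 were lower (8%). Of the 6, 2 were lower at every dose. The smallest adjusted p was that of A045, on in 44 of 44 Set-A and 24 of 44 Set-B neurospheres (adjusted p = 1.41e-07, exact test). Its difference lay mostly at the lower doses. In Set-B it was on in 1 of 11 neurospheres at 0 mM, 2 at 25 mM, 10 at 70 mM and 11 at 100 mM. A014, with 0 of 44 and 7 of 44, did not pass (adjusted p = 0.0580, exact test) but passed without the neurosphere with 28 assays off (adjusted p = 0.0407, exact test).

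The level of some members also moved between runs under the same code. With at least 5 values on each side, 52 members could be compared in both sets. The median cycle number moved by a median of 0.56 cycles from run 1 to run 2 in Set-A, over 54 members. From run 1 to run 3 in Set-B it moved by 0.32, over 53 members. That of the 18 never-off assays moved by -0.37 to 1.68 and -1.07 to 0.99. For 4 members, A001, A047, A052 and A072, it moved by over 5 cycles in both sets, a limit chosen after the values were seen. A052 went from 4.96 to 17.97 cycles in Set-A and from 4.11 to 16.4 in Set-B. A072 went from 5.43 to 17.8 and from 6.36 to 19.8. The sources used here do not say whether a code stood for the same primer pair in every run, and what part this had in the results was not tested. All dose comparisons below were therefore made within run and set.

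**Figure D3:**
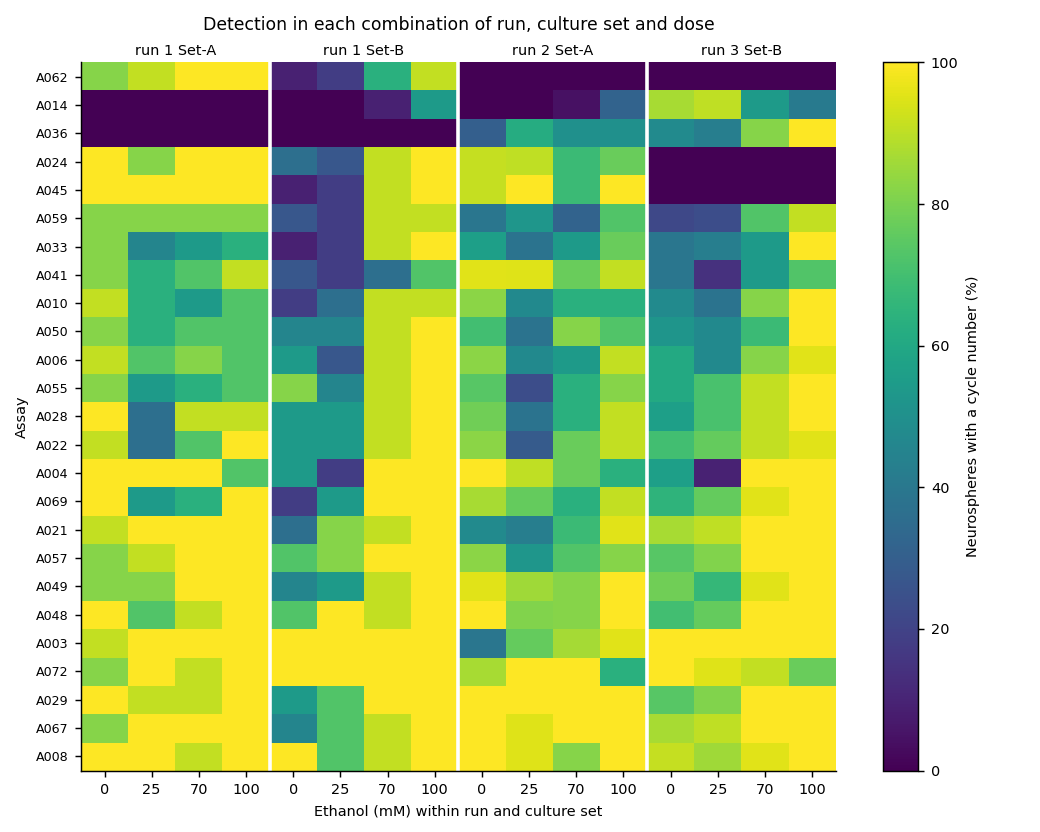
Colour gives the percent of neurospheres with a cycle number, from 0 to 100, for the 25 members on in 5% to 95% of neurospheres (rows, least often detected at the top) in each of the 16 cells of run, culture set and ethanol dose in mM (columns, n of 11 to 23). Dark blocks that fill a whole combination mark the 5 assays without any detection there, and in both Set-B combinations most rows turn lighter from 0 and 25 mM to 70 and 100 mM.

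At 100 mM ethanol more transcripts were on. Neurospheres at 0 mM had 9.24 ± 5.60 assays off (SD, n = 68, median 7, range 2 to 22), those at 25 mM 10.7 ± 5.38 (n = 64, median 9.5, range 2 to 25), those at 70 mM 6.98 ± 5.41 (n = 66, median 5, range 1 to 28) and those at 100 mM 4.23 ± 2.20 (n = 66, median 4, range 1 to 11). The ranges overlapped, but no neurosphere at 100 mM had more than 11 assays off. Mean cycle number over the never-off assays moved the same way, with 12.8 ± 2.13 at 0 mM, 13.4 ± 2.07 at 25 mM, 12.2 ± 3.01 at 70 mM and 10.6 ± 1.90 at 100 mM (SD, the same n). The sets differed in this order. Median assays off at 0, 25, 70 and 100 mM were 3, 8, 4 and 4 in run 1 Set-A and 7, 10, 7 and 5.5 in run 2 Set-A. For Set-B they were 16, 16, 3 and 2 in run 1 and 11, 9, 5.5 and 4 in run 3.

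At 100 mM against 0 mM, tested within run and set, 19 of 75 assays were on more often (25.3%) and 0 less often (0%, and 1 at an unadjusted p under 0.05). All 19 are members, as the never-off assays cannot differ. The 19 rose by 14.7 to 44.96 percentage points, with a median of 20.4, and 3 of them were higher in all 4 combinations of run and set. Over the 57 members 41 were higher, 2 lower and 14 equal, with a median change of 2.95 points against 1.49 over all 75 assays.

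The largest rise was that of A059, a transcript of the middle range, from 26 of 68 neurospheres at 0 mM to 55 of 66 at 100 mM, with 27 of 64 at 25 mM and 42 of 66 at 70 mM between them. Its share differed by 44.96 points, an odds ratio of 8.29 (95% interval 3.47 to 21.3, adjusted p = 4.66e-06, exact test). By combination, A059 at 0 and 100 mM was on in 9 and 9 of 11 in run 1 Set-A, 3 and 10 of 11 in run 1 Set-B, 9 of 23 and 16 of 22 in run 2, and 5 of 23 and 20 of 22 in run 3. It was thus higher in 3 of 4 combinations and equal in the other. A021 went from 45 of 68 to 65 of 66, with 48 of 64 and 58 of 66 at the doses between, and was higher in 4 of 4 combinations (odds ratio 40.97, 95% interval 5.90 to 1796, adjusted p = 4.66e-06, exact test). Only 1 neurosphere at 100 mM was without it, which leaves the upper limit of the interval wide open. In run 1 Set-A, A021 was on in 43 of 44 neurospheres over all doses, so the rise there rests on 1 neurosphere.

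Falls at 100 mM did not pass the threshold. A072 was on in 63 of 68 neurospheres at 0 mM, 63 of 64 at 25 mM, 63 of 66 at 70 mM and 53 of 66 at 100 mM. Against 0 mM this is a difference of -12.5 points (adjusted p = 0.130, exact test), which passed when the adjustment ran over the 25 middle members (adjusted p = 0.0455, exact test). Its missing values at 100 mM all lie in runs 2 and 3, with 14 of 22 and 17 of 22 on, where its median cycle number was 12.4 and 13.4 cycles later than in run 1 of the same set. In run 1 it was on in 11 of 11 at 100 mM in each set. A054 was on in all neurospheres at 0, 25 and 70 mM and in 63 of 66 at 100 mM, a difference of -4.58 points (adjusted p = 0.339, exact test).

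Mean cycle number moved with the 100 mM result. When neurospheres were compared only within 4 parts of equal size, ranked by mean cycle number in their run and set, 3 of the 19 assays passed, A003, A021 and A062. The share of A059 then differed by 18.7 points (adjusted p = 0.394, exact test). In run 1 Set-B the part of earliest mean cycle numbers held no 0 mM neurosphere and the latest no 100 mM neurosphere. In run 3 the latest part held none at 100 mM, where the highest value was 12.4 against a median of 13.07 at 0 mM. A part with 1 dose compares nothing, and how much of the fall from 19 to 3 comes from this was not tested. A003 was on in all Set-B neurospheres at both doses, so its rise was that of Set-A, from 19 of 34 to 32 of 33. Within Set-A it lay mostly in run 2, since over all doses A003 was on in 43 of 44 in run 1 and 65 of 88 in run 2. A062 was on in run 1 alone, where it went from 9 to 11 of 11 in Set-A and from 1 to 10 of 11 in Set-B. Within 4 such parts by diameter 9 passed, with run 1 alone 6 of the 19 and 1 other, and with run 1 left out 6. In run 3 diameter nearly separated these doses. The smallest neurosphere at 0 mM measured 30.08 micrometres and the largest at 100 mM 36.005. The part of smallest diameters there held no neurosphere at 0 mM, and that of largest diameters none at 100 mM. Such parts compare nothing, and how much of the fall from 19 to 9 comes from this was not tested. Diameter at 100 mM was 37.5 ± 14.5 micrometres (SD, n = 66) against 55.8 ± 31.9 at 0 mM (SD, n = 68). This gap was uneven. Mean diameter at 0 and 100 mM was 86.2 and 40.5 in run 1 Set-A and 46.04 and 41.9 in run 1 Set-B. It was 60.3 and 45.8 in run 2, and 41.5 and 25.6 in run 3. The run 3 diameters at 100 mM are given to more decimal places than all others, and whether they were measured alike was not tested.

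At 25 mM against 0 mM, 0 assays were on more often (0%) and 1 less often (1.33%), with 1 and 6 at an unadjusted p under 0.05. That assay was A004, on in 53 of 68 neurospheres at 0 mM and 34 of 64 at 25 mM, a change of -24.9 points (odds ratio 0.110, 95% interval 0.0239 to 0.393, adjusted p = 0.00618, exact test). Its loss lay mostly in Set-B, where it went from 6 to 2 of 11 in run 1 and from 13 of 23 to 2 of 21 in run 3. At 70 mM against 0 mM, 0 assays were higher and 0 lower by the exact test (0% in each direction), with 8 and 2 at an unadjusted p under 0.05. A059 (25.1 points) and A021 (21.7 points) had an adjusted p of 0.0556 each by the exact test. Without the neurosphere with 28 assays off, which is in the 70 mM group, 6 assays were higher, A059 and A021 among them (adjusted p = 0.0298 and 0.0244, exact test). With Set-B alone 11 were higher, and with the 25 middle members 7.

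The doses above 0 mM also differed among themselves. At 70 mM against 25 mM, 7 assays were higher (9.33%) and 0 lower (0%), and 5 of the 7 were higher in all 4 combinations. The 2 with the smallest adjusted p were A004, from 34 of 64 to 61 of 66, and A022, from 32 of 64 to 55 of 66 (adjusted p = 2.62e-06 and 0.00152, exact test). At 100 mM against 25 mM, 20 were higher (26.7%) and 1 lower (1.33%), and 9 of these were higher in all 4 combinations. A072 was the lower assay, from 63 of 64 to 53 of 66 (-17.97 points, adjusted p = 0.00376, exact test). Within the 4 parts by mean cycle number 2 of the 7 and 0 of the 21 passed. In run 1 Set-B the latest of these parts held only 25 mM neurospheres in both comparisons, and how much this lowers the counts was not tested. At 100 mM against 70 mM, 0 were higher and 0 lower by the exact test (0% in each direction), with 14 and 1 at an unadjusted p under 0.05.

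The change with ethanol was not alike in the sets. For the 19 assays that rose at 100 mM the median change was 5.84 points in Set-A, with 13 higher, 4 lower and 2 equal, and 32.5 points in Set-B, with 18 higher, 0 lower and 1 equal. An exact conditional test of equal odds ratios in both sets, adjusted over all 75 assays, called 6 assays for 100 mM against 0 mM (8%), 9 for 70 mM (12%) and 2 for 25 mM (2.67%). At 70 mM all 9 changed in opposite directions, down in Set-A and up in Set-B, and at 100 mM 5 of the 6 were higher in Set-B. Mean cycle number over the never-off assays also moved unlike in the sets. At 0, 70 and 100 mM it was 12.2, 12.3 and 11.9 in run 1 Set-A and 13.0, 14.4 and 11.2 in run 2. In Set-B it was 13.5, 9.84 and 10.1 in run 1 and 12.5, 11.2 and 9.58 in run 3. The test of equal odds ratios was not run within parts by mean cycle number, so what part this had was not tested. The smallest adjusted p at 100 mM was that of A004. In Set-A it went from 34 of 34 neurospheres at 0 mM to 22 of 33 at 100 mM, and in Set-B from 19 of 34 to 33 of 33, changes of -33.4 and 44.1 points (adjusted p = 5.88e-07, exact test). Pooled over sets A004 therefore showed little change at 100 mM, with 53 of 68 and 55 of 66.

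A014 was the assay that ran the other way at 100 mM. In Set-A it was on in 0 of 34 neurospheres at 0 mM and 7 of 33 at 100 mM, all in run 2, and in Set-B in 20 of 34 and 15 of 33 (adjusted p = 0.0403, exact test). The Set-B runs themselves opposed each other: A014 went from 0 to 6 of 11 in run 1 and from 20 of 23 to 9 of 22 in run 3. At 70 mM, A059 changed by -4.91 points in Set-A, from 18 of 34 to 16 of 33, and by 55.1 points in Set-B, from 8 of 34 to 26 of 33 (adjusted p = 0.0105, exact test). At 25 mM both assays called, A022 and A028, were on less often than at 0 mM in Set-A. Their cycle numbers ran closely together, as given below, so the 2 calls need not be separate results. A022 went from 29 of 34 to 10 of 32 there and from 22 of 34 to 22 of 32 in Set-B (adjusted p = 0.0368, exact test), and A028 from 29 of 34 to 12 of 32 and from 19 of 34 to 21 of 32 (adjusted p = 0.0368, exact test).

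**Figure D4:**
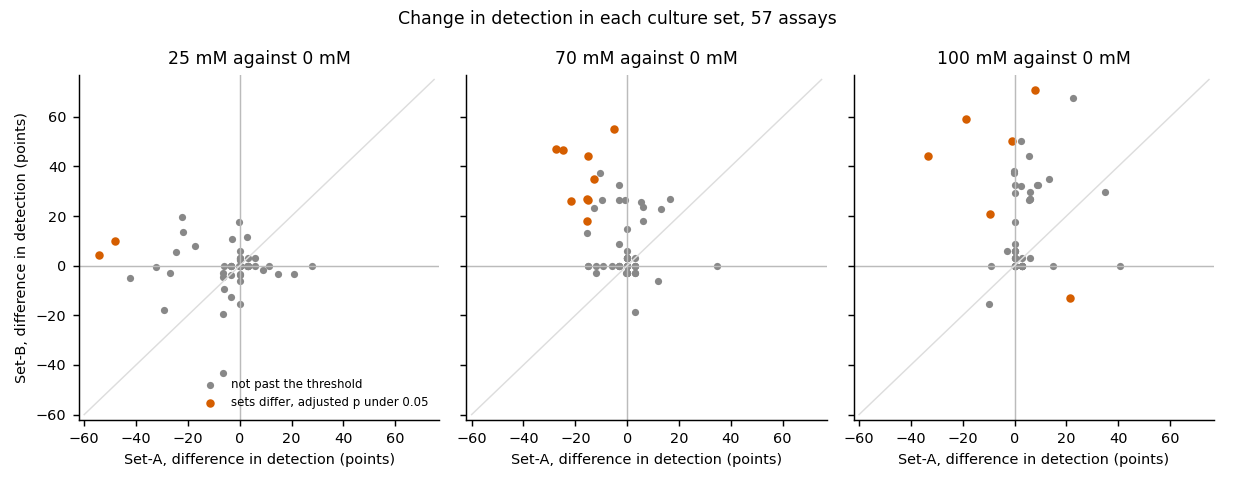
Change in the percent of neurospheres with a cycle number against 0 mM, in points, in Set-A (horizontal axis) and Set-B (vertical axis), in 1 panel for each dose and with 1 point for each of the 57 members. Orange points are assays whose change differed between the sets, from left to right 2, 9 and 6 of them, and all 9 at 70 mM lie left of and above 0.

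Transcripts were detected together and not apart. Of 1596 pairs of members, tested within run, set and dose and adjusted over the 1596 pairs, 117 were on and off together (7.33%) by the exact conditional Mantel-Haenszel test. By the same test 0 were apart (0%, and 0 at an unadjusted p under 0.05). The odds ratio was above 1 in 897 pairs and below 1 in 269, and 429 gave none, since no cell held both values on and values off of each assay. The called pairs involved 27 members, 21 of them among the 25 middle members, where 97 of 300 possible pairs passed. A028 was in 20 pairs, more than any other member. The finite odds ratios of called pairs began at 2.77, and the median over called pairs was 5.77.

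The strongest pair was A022 with A028. Both were on in 184 neurospheres and both off in 49, with A022 alone in 17 and A028 alone in 14 (odds ratio 23.8, 95% interval 9.59 to 65.6, adjusted p = 4.35e-13, exact test). Where both were on, their cycle numbers also ran together. They differed by a median of 0.09 cycles, and the correlation of the values, each less the neurosphere's mean over the never-off assays and less the assay's mean in its run and set, was r of 0.97 over 184 neurospheres. This was the highest of 1576 pairs of members, whose median r was 0.09. By combination r was 0.98, 0.95, 0.97 and 0.98. The next highest was A003 with A009, at 0.97 over 236 neurospheres and a median difference of -0.08 cycles, and the third was 0.82. By combination the median difference of A003 and A009 changed, at -0.77, -0.57, -0.13 and 0.24 cycles. For A022 with A028 it was -0.05, 0.12, 0.09 and 0.09. A003 and A009 were both off in 8 neurospheres, with A003 alone on in 4 and A009 alone in 16 (odds ratio 26.0, adjusted p = 0.0125, exact test). These 2 pairs were picked out for their likeness, and the files do not say whether both codes of a pair belong to 1 gene.

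The second pair by adjusted p, A010 with A069, was on in 163 and off in 45 neurospheres together, with A010 alone in 10 and A069 alone in 46 (odds ratio 10.2, 95% interval 4.18 to 27.5, adjusted p = 2.63e-06, exact test). The levels of this pair ran together less closely, with r of 0.19 over 163 neurospheres and, by combination, 0.44, 0.11, 0.05 and 0.30. The pairs nearest to being apart, A014 with A059 (odds ratio 0.417) and A045 with A055 (odds ratio 0.210), had an adjusted p of 0.325 each by the exact test. Their direction was not stable, with odds ratios of 1.66 for A014 with A059 in Set-A alone and 1.31 for A045 with A055 in Set-B alone. Fewer pairs passed among neurospheres of like mean cycle number. When each cell was also split at its median mean cycle number, 1 pair of 117 passed, A022 with A028 (odds ratio 13.6, adjusted p = 2.75e-06, exact test), and A010 with A069 had an odds ratio of 5.88 (adjusted p = 0.112, exact test). The split also leaves fewer neurospheres to compare in each part, and how much of the loss of calls comes from this was not tested. Without the neurosphere with 28 assays off 96 pairs passed.

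**Figure D5:**
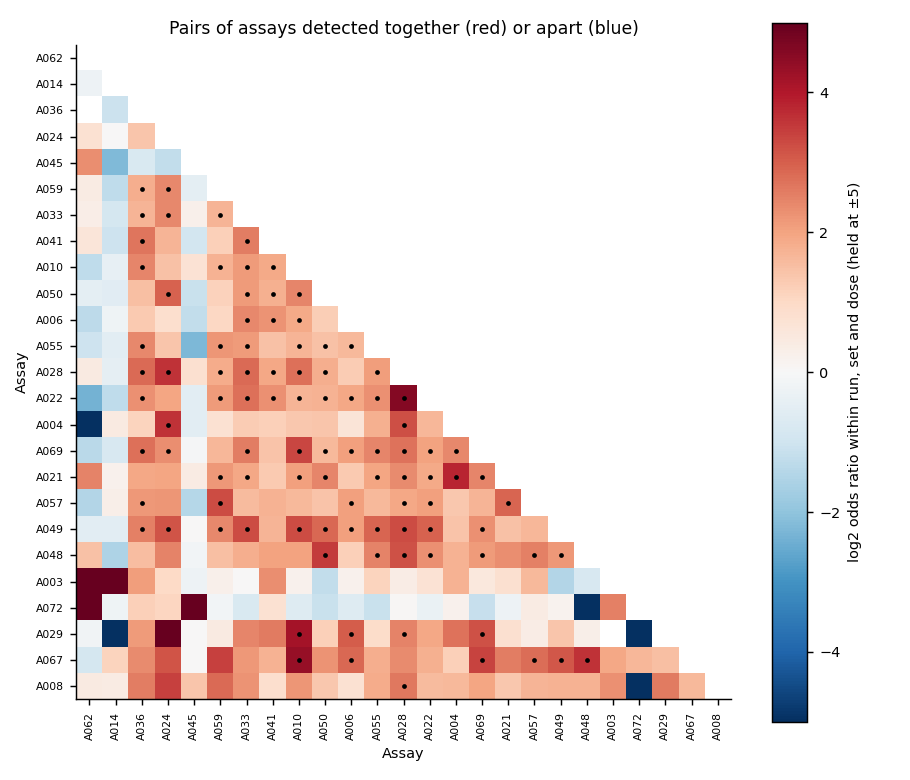
Log2 odds ratio of being detected together within run, culture set and dose for each pair of the 25 members on in 5% to 95% of neurospheres, held at ±5 for display. Red pairs were on and off together, blue pairs apart, white cells below the diagonal have a ratio near 1 or none, and dots mark the 97 pairs with adjusted p under 0.05, which are all red.

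Detection of single members was linked to the mean cycle number of the neurosphere. This measure holds no values of the members, although the same rule that chose the members left the 18 assays it is taken over. The link was tested by permuting mean cycle number 100000 times within run, set and dose, with adjustment over 75 assays. In neurospheres where the assay was on, the never-off assays came earlier for 29 assays (38.7%) and later for 1 (1.33%). Among the 57 members 50 were on in earlier neurospheres, with a median difference of -2.01 cycles, and the differences of the 29 called ran from -1.38 to -4.96. For 17 assays no permutation reached the observed difference (adjusted p = 4.41e-05, permutation test, the smallest that it can give here). A039, off in 10 neurospheres, had a difference of -4.64 cycles (SE 0.70), and A009, off in 12, one of -3.22 cycles (SE 0.65), both at that smallest adjusted p. In Set-B alone A009 was off in 1 neurosphere, and the difference was 0.42 cycles.

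A045 was the opposite case, on in neurospheres whose other transcripts came 2.25 cycles later (SE 0.66, adjusted p = 0.0178, permutation test). Of its 117 missing values 88 are the whole of run 3 and do not enter this comparison. In run 1 Set-A it was on in 44 of 44, so Set-A enters only through run 2, with 79 of 88 on. Over Set-A it was on in 32 of 34 at 0 mM, 26 of 33 at 70 mM and in all at the other doses. The link thus rests on few neurospheres. In Set-B alone the difference was 0.41 cycles (adjusted p = 1, permutation test). No assay's detection was linked to diameter past the threshold. By the permutation test 0 assays were on in smaller neurospheres and 0 in larger ones (0% each), with 5 at an unadjusted p under 0.05, and 28 of 57 members were on in smaller ones. The smallest adjusted p were those of A069, with 0.24 log2 units larger diameter when on (SE 0.08, adjusted p = 0.201, permutation test), and A050, with 0.19 (SE 0.07, adjusted p = 0.289, permutation test).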

How the data were processed

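Per the labels, cycle numbers were calculated with the Fluidigm Real-Time PCR Analysis Software from EvaGreen fluorescence over 30 cycles, and the deposited values are such numbers on an inverted log2 scale, not normalized per the file headers. The sources used here name neither its version nor how it came to leave a value missing. The series design counts 96 genes and 400 neurospheres, of which those outside the table are not analysed here. A missing value was read as off. Groups, sets and runs came from each sample's labels.

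The members, lists and tests were chosen with earlier results of these data known. Detection was compared with two-sided exact conditional Mantel-Haenszel tests in Python 3.11.15 (numpy 2.4.6, pandas 2.3.3, scipy 1.17.1, figures with matplotlib 3.10.9), with run and set as strata for doses, dose for runs and sets, and run, set and dose for pairs. Links used two-sided permutation tests of 100000 resamples within run, set and dose. Benjamini-Hochberg adjustment at 0.05 ran over all 75 assays, those never off entering with p of 1, or over 1596 pairs. Differences in points weight the strata. The scripts were tested on simulated data. No count of molecules lies behind a cycle number, so the number of neurospheres sets the precision, and intervals cover counting error only.

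Named assays are those with the smallest adjusted p, 2 rising and 2 falling at 100 mM, 1 each way for each run or set comparison, 2 pairs each way, the least and the most often detected, and 2 for each link with any opposite link. A001, A003, A004, A047 and A052 were named after their values were seen. Alternatives were the 25 middle members alone, values above 25 cycles read as off, strata of mean cycle number or diameter, no strata with Fisher's exact test, single sets and runs, a replicate block and, chosen after seeing the data, the table without the neurosphere with 28 assays off.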

Additional observations from a re-analysis of the deposited data

Results flagged for a closer look

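The change in detection with ethanol differed between Set-A and Set-B, by an exact conditional test of equal odds ratios adjusted over 75 assays, for 2 assays at 25 mM, 9 assays at 70 mM and 6 assays at 100 mM. A059, the assay with the largest rise at 100 mM, was among those at 70 mM (adjusted p = 0.0105, exact test), with -4.91 points in Set-A and 55.1 points in Set-B. Mean cycle number over the never-off assays also moved unlike in the sets, and the test was not run within parts by it.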

How the results depend on the processing

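Of the counts recomputed under an alternative, 58 stayed within 1.5 times the reported count and 26 did not. At 25 mM against 0 mM the count of 1 became 5 with the 25 middle members, 3 within 4 parts by mean cycle number, 3 in Set-A alone, and 0 without strata or in run 1 alone. At 70 mM against 0 mM the count of 0 became 7 with the middle members, 1 within parts by mean cycle number, 11 in Set-B alone, 1 in run 1 alone and 6 without the neurosphere with 28 assays off. At 100 mM against 0 mM the count of 19 became 3 within parts by mean cycle number, 3 in Set-A alone (2 higher and A004 lower), 7 in run 1 alone, 6 without run 1 and 9 within parts by diameter. Within parts by mean cycle number, 70 against 25 mM gave 2 of 7, 100 against 25 mM 0 of 21, run 2 against run 1 3 of 5 and Set-B against Set-A 2 of 6. With the middle members 70 against 25 mM gave 12 and 100 against 70 mM 3. With values above 25 cycles off, 100 against 70 mM gave 1 and the difference between sets at 25 mM 0. Of the 117 pairs together, 1 passed within parts by mean cycle number, while Set-A alone gave 7 and Set-B alone 56. The link of A009 to mean cycle number was -3.22 cycles and 0.42 cycles in Set-B alone, where it was off in 1 neurosphere. The causes were not tested. Single sets and runs hold fewer neurospheres, and parts by mean cycle number or diameter compare fewer at a time. With the position code that closes each title as a replicate block, 25, 70 and 100 mM against 0 mM gave 1, 0 and 16 calls. Whether neurospheres of the same position belong together was not settled. The median correlation of 390 same-position pairs was -0.00, and 152 of these pairs were over 0.1. Of 262 neurospheres, 18 were most like one of the same position. What these counts would be for unrelated neurospheres was not computed.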
